A study of Mus musculus with 13 samples.

Results

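The genes described here are 10 components of STAT5 signalling and of its feedback loop. They are the kinase Jak2, the transcription factors Stat5a and Stat5b, the feedback inhibitors Cish, Socs1, Socs2 and Socs3, the kinases Pim1 and Pim2, and the cytokine oncostatin M (Osm). They were selected by gene symbol and not by a measured value, although with earlier results of these data known. They make up 10 of the 22180 genes that had a probe set of their own on the arrays. Each gene is shown by its brightest probe set on average, and 4 members (Cish, Socs2, Socs3 and Pim1) also had a second probe set, which is given apart. Values are log2 expression levels, so that a difference of 1 stands for a 2-fold change.

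The arrays carried RNA of splenic CD205+CD8+ dendritic cells, the type 1 conventional dendritic cells (cDC1) of the mouse, sorted by their level of the integrin CD103. Muramyl dipeptide (MDP), a piece of bacterial peptidoglycan sensed inside the cell by NOD2, was set against its vehicle, phosphate-buffered saline (PBS). The groups were CD103 high cells of mice given MDP (n = 3), CD103 low cells of mice given MDP (n = 3), CD103 high cells of mice given PBS (n = 3) and CD103 low cells of mice given PBS (n = 4). All mice were C57Bl/6 littermates labelled male, and all, the PBS mice included, carried a melanoma of the B16 line, made to secrete the dendritic cell growth factor Flt3L and placed under the skin at 6 weeks of age. After 5 days mice received 50 ug of MDP in 100 ul of PBS, or the PBS alone, into the peritoneum, and the spleen was taken 24 h later. No label states that each array came from a mouse of its own, so p-values measure the spread between these 13 arrays, which may be technical.

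STAT5 carries the signal of cytokines such as GM-CSF, IL-3 and thymic stromal lymphopoietin from the membrane to the nucleus. A receptor that has bound its cytokine brings JAK kinases together, these phosphorylate STAT5A and STAT5B, and the STAT5 dimers bind DNA and switch on target genes, among them Cish, the SOCS genes, the PIM kinases and Osm. The proteins CIS and SOCS then bind receptors or kinases and dampen the same signal, which is why their transcripts are used as readouts of recent cytokine signalling. GM-CSF is known to raise CD103 on dendritic cells of this kind. The arrays measured transcripts, and neither the phosphorylation of STAT5 nor its binding to DNA.

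The sort and the arrays were checked before the members were read. Itgae, the gene of CD103, averaged 11.35 ± 0.21 in MDP CD103 high cells, 10.13 ± 0.52 in MDP CD103 low cells, 10.15 ± 0.08 in PBS CD103 high cells and 7.92 ± 0.41 in PBS CD103 low cells (SD, n = 3, 3, 3 and 4). The CD103 low mean of MDP mice and the CD103 high mean of PBS mice differed by less than either SD. For CD103 high against low, Itgae gave 2.23 in PBS mice, with an adjusted p of 0.00376 in limma. In MDP mice it gave 1.22, with an adjusted p of 0.0529, short of the threshold of 0.05 used here. The cDC1 factors Batf3 and Irf8 and the cDC1 receptor Xcr1 were present on all arrays, at 11.00 to 11.34, 12.18 to 12.28 and 9.84 to 10.16. The mean over the markers of neutrophils, natural killer cells and B cells did not exceed 4.77 on any array, that of T cells 5.29, that of cDC2 5.51, and those of plasmacytoid dendritic cells and monocytes 6.52 and 6.53. Single markers did differ past the threshold in limma. The plasmacytoid marker Cd300c gave -0.96 for MDP against PBS in CD103 high cells (adjusted p of 0.0052). Pacsin1, also plasmacytoid, gave 0.90 for CD103 high against low in PBS mice (0.0294). The cDC2 marker Sirpa gave -0.50 for CD103 high against low in MDP mice (0.0308). Xist, which females use to silence an X chromosome, was at 10.98 to 11.21 on 7 arrays, where 3 Y-linked genes averaged 3.50 to 4.39. It was at 4.47 to 6.69 on the other 6 arrays, where they averaged 7.85 to 8.21, although all mice were labelled male. Both kinds of array occurred in each of the 4 groups, and with the Xist level as a covariate 0 of 10 members passed the threshold in any contrast, with a smallest adjusted p of 0.341.

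The MDP CD103 low replicate 1 array stood apart from the rest. Its mean over 22 markers of mature dendritic cells, such as the chemokine receptor Ccr7 and the costimulatory protein Cd80, was 8.88. The same mean was 7.78 and 7.79 on the other arrays of its group and lay between 7.19 and 8.23 over all other arrays. Many of the values that moved by over 1.5 times without this array are given without it below. The MDP CD103 high arrays had the lowest mature marker means, 7.19, 7.23 and 7.40, and the highest means over 24 cell cycle genes, 9.36, 9.39 and 9.23. MDP CD103 low arrays had cell cycle means of 8.38, 8.80 and 8.79. In sorted bulk cells, fewer cells of a type and less RNA per cell cannot be told apart.

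None of the 10 members passed the threshold, an adjusted p of 0.05 over all 22180 genes in limma, in any of 7 contrasts. For MDP against PBS in CD103 high cells this was 0 of 10 members against 1.82% of all genes, and in CD103 low cells 0 of 10 against 0.00451%. For CD103 high against low it was 0 of 10 against 0.523% in MDP mice and 0 of 10 against 0.0766% in PBS mice. For MDP against PBS averaged over both subsets it was 0 of 10 against 0.185%, and for CD103 high against low averaged over both treatments 0 of 10 against 0.126%. For the interaction, the MDP response of CD103 high cells minus that of CD103 low cells, it was 0 of 10 against 0.0721%. In the contrasts with so few calls over all genes, a count of 0 says little about 10 genes. With the arrays of 1 treatment that share a replicate number joined as a random block, the genes called were 392 in place of 403, 2 in place of 1, 190 in place of 116, 23 in place of 17, 13 in place of 41, 64 in place of 28 and 41 in place of 16, in the same order, and the members called stayed at 0.

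At an unadjusted p under 0.05 the same limma fit gave 6 of the 70 member differences: Stat5a and Pim1 for MDP against PBS in CD103 high cells, Socs2 and Pim1 for CD103 high against low in MDP mice, and Stat5a and Pim1 for the interaction. In these contrasts 13.3%, 10.2% and 9.63% of all genes did so. The smallest adjusted p of any member was 0.323. With the brightest probe set of each member, the 40 differences between pairs of groups lay between -0.38 and 0.26. All 40 of their 95% intervals stayed within 1 log2 unit of 0, and 32 within 0.5, with outermost bounds of -0.71 (0.612-fold) and 0.55 (1.46-fold). Each interval stands for 1 difference, without a correction for their number. Cish, Socs2, Socs3 and Osm lay near the top of the range of the olfactory receptor genes, given below. For them a narrow interval does not establish unchanged expression. Second probe sets are not among the 40, and that of Socs2 went beyond these bounds. It gave -1.26 (-2.26 to -0.26) for CD103 high against low in MDP mice, and -0.60 without MDP CD103 low replicate 1.

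**Figure D1:**
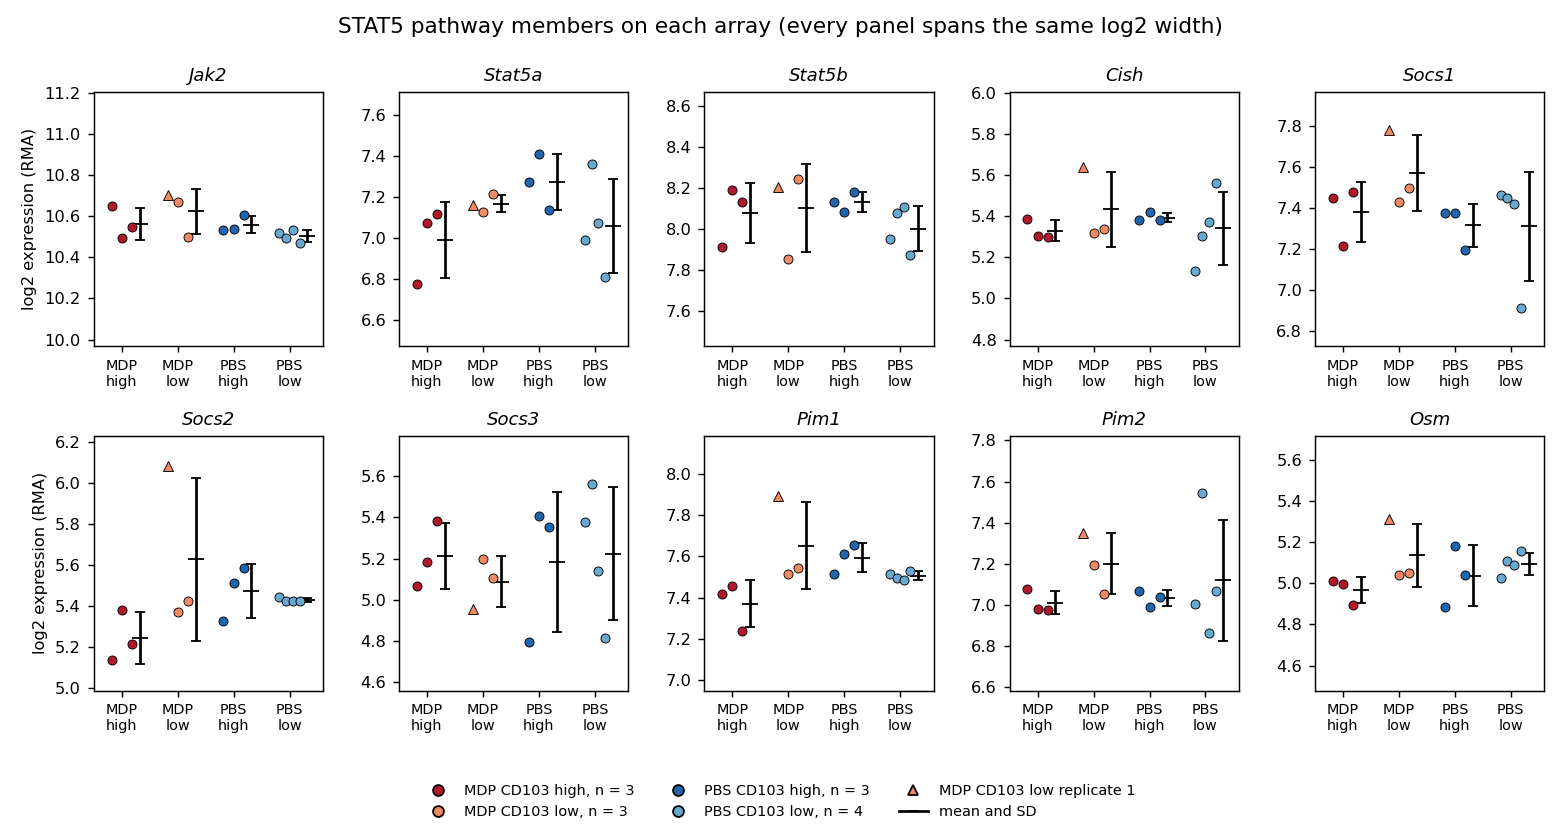
Log2 expression of each member on each of 13 arrays, with group means and SD; MDP CD103 high and low stand left of PBS CD103 high and low, and the triangle is MDP CD103 low replicate 1. The triangle is the highest point for Jak2, Cish, Socs1, Socs2, Pim1 and Osm, and the MDP CD103 high points lie under all MDP CD103 low points for Stat5a, Pim1 and Osm.

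**Figure D2:**
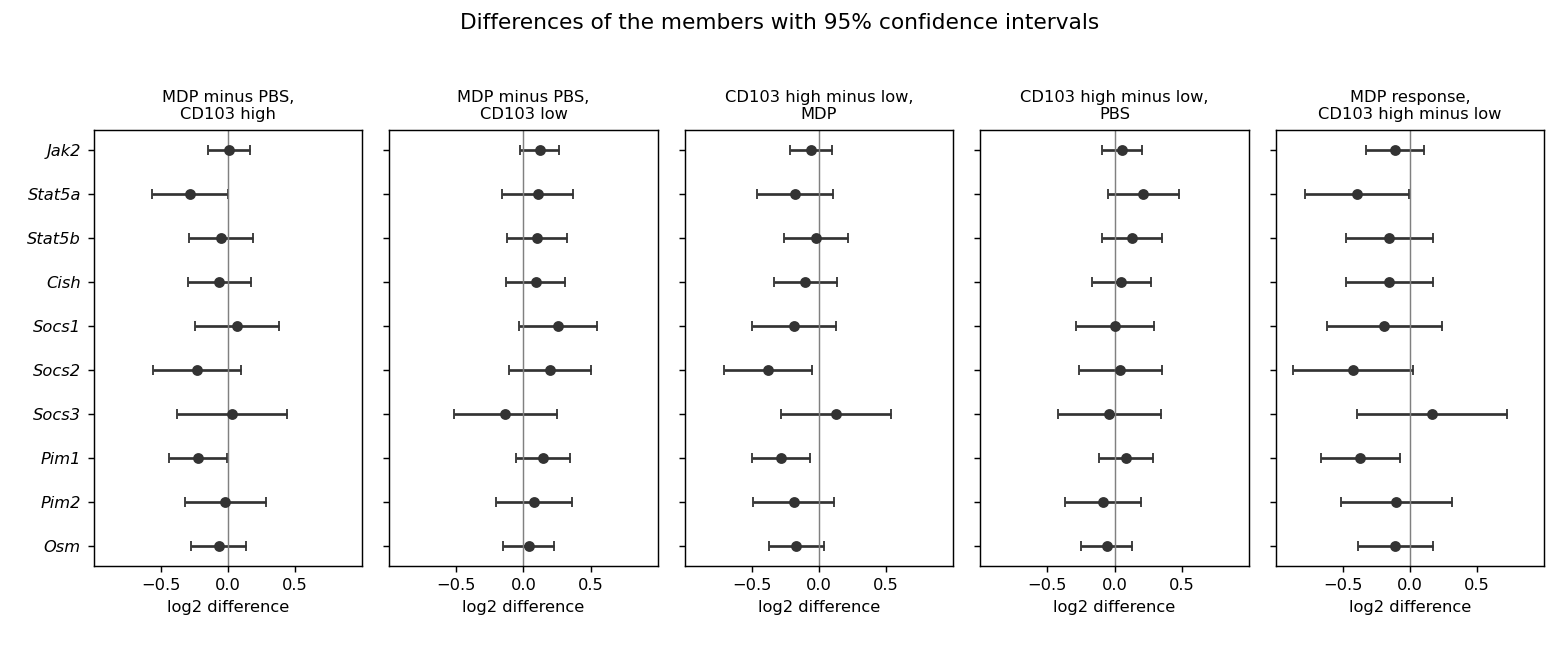
Log2 difference of each member with its 95% interval from limma, for MDP minus PBS in each subset, CD103 high minus low in each treatment, and the difference between the 2 MDP responses. No interval of the first 4 panels reaches -1 or 1.

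Jak2, the kinase bound to the GM-CSF and IL-3 receptors, hardly varied. It was at 10.65, 10.50 and 10.55 in MDP CD103 high cells, 10.70, 10.67 and 10.50 in MDP CD103 low cells, 10.53, 10.54 and 10.61 in PBS CD103 high cells, and 10.52, 10.49, 10.53 and 10.47 in PBS CD103 low cells. The groups overlapped in all 4 pairs compared, and the whole range over 13 arrays was 0.233. The MDP against PBS difference was 0.01 (95% interval -0.15 to 0.16) in CD103 high cells and 0.12 (-0.03 to 0.27) in CD103 low cells, with adjusted p of 0.982 and 0.826.

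Stat5a, 1 of the 2 STAT5 genes, was at 6.78, 7.07 and 7.12 in MDP CD103 high cells, against 7.28, 7.41 and 7.14 in PBS CD103 high cells. In CD103 low cells it was at 7.16, 7.13 and 7.21 in MDP mice, against 6.99, 7.36, 7.08 and 6.81 in PBS mice. All 3 MDP CD103 high arrays lay under all PBS CD103 high arrays and under all MDP CD103 low arrays, while the CD103 low groups overlapped. The difference of MDP against PBS was -0.28 ± 0.13 (SE) in CD103 high cells, with an adjusted p of 0.372, and 0.11 ± 0.12 in CD103 low cells, with an adjusted p of 0.908. The difference between these 2 responses was -0.39 ± 0.18, with an adjusted p of 0.512. Without MDP CD103 high replicate 2, the lowest array, MDP against PBS in CD103 high cells was -0.18.

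Stat5b, the other STAT5 gene, was at 7.91, 8.19 and 8.13 in MDP CD103 high cells, 8.21, 7.86 and 8.24 in MDP CD103 low cells, 8.13, 8.08 and 8.18 in PBS CD103 high cells, and 7.95, 8.08, 8.11 and 7.87 in PBS CD103 low cells. The groups overlapped in all 4 pairs compared. Its 4 pairwise differences ran between -0.05 and 0.13, and the interval of MDP against PBS was -0.29 to 0.19 in CD103 high and -0.12 to 0.32 in CD103 low cells. In CD103 low cells the difference was 0.10, and 0.05 without MDP CD103 low replicate 1.

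Cish encodes CIS, the classical STAT5-induced inhibitor, which docks on activated receptors. STAT5 dimers are known to bind the letters TTCNNNGAA, and these letters were searched in the RefSeq promoter windows (GRCm38.p6), which run from 250 bases before to 50 bases after each gene start. The motif reads the same on both strands. It occurred in 2726 of 32851 windows (8.30%) and at least 2 times in 150 (0.457%). Windows existed for 8 members, 11 windows in all, and the motif was found in those of Cish and Socs3. The 30 bases around it are shown because these 2 feedback inhibitors were the members whose windows held the letters, with the motif in capitals. The first is from chr9:107296654-107296683 on the plus strand, with motifs that begin at bases 1 and 12 of the gene. The second is from chr11:117969502-117969531 on the minus strand, with a motif that begins at position -154.
Cish: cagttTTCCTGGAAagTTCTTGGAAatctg
Socs3: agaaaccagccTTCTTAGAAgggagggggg
A match is a description of the letters and not a measured binding site, and no factor binding was measured here.

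Cish expression was at 5.39, 5.30 and 5.30 in MDP CD103 high cells, 5.64, 5.32 and 5.34 in MDP CD103 low cells, 5.38, 5.42 and 5.38 in PBS CD103 high cells, and 5.13, 5.30, 5.37 and 5.56 in PBS CD103 low cells. The groups overlapped in all 4 pairs compared, and MDP CD103 low replicate 1 was the highest array. The MDP against PBS difference was -0.06 ± 0.11 in CD103 high and 0.09 ± 0.10 in CD103 low cells (adjusted p of 0.865 and 0.907), and without MDP CD103 low replicate 1 the second was -0.01.

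The second Cish probe set, the dimmer of the pair, gave other values. It was at 3.76, 3.46 and 4.01 in MDP CD103 high cells, against 3.58, 3.57 and 3.40 in PBS CD103 high cells. In CD103 low cells it was at 3.83, 3.75 and 3.72 in MDP mice, against 3.55, 3.29, 3.25 and 3.28 in PBS mice. All MDP CD103 low arrays lay above all PBS CD103 low arrays, a difference of 0.42 ± 0.12 that had an adjusted p of 0.740. Averaged over both subsets, MDP against PBS was 0.33 ± 0.08, with an adjusted p of 0.143. Values of this size are low for these arrays, where the 95th percentile over 1105 olfactory receptor genes, which dendritic cells are not known to use, was 5.12. The brighter Cish probe set averaged 5.37, little above that percentile.

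Socs1 encodes the inhibitor that blocks JAK kinase activity, best known for limiting interferon signalling. It was at 7.45, 7.22 and 7.48 in MDP CD103 high cells, against 7.37, 7.38 and 7.19 in PBS CD103 high cells. In CD103 low cells it was at 7.78, 7.43 and 7.50 in MDP mice, against 7.46, 7.45, 7.42 and 6.91 in PBS mice. The groups overlapped in both subsets. The difference of MDP against PBS in CD103 low cells, 0.26 ± 0.14 with an adjusted p of 0.821, was the highest of the 40 pairwise differences. It was 0.15 without MDP CD103 low replicate 1, the highest array, and 0.12 without PBS CD103 low replicate 6, the lowest.

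Socs2 encodes an inhibitor best known for limiting growth hormone signalling through STAT5. It was at 5.14, 5.38 and 5.21 in MDP CD103 high cells, 6.08, 5.37 and 5.43 in MDP CD103 low cells, 5.33, 5.51 and 5.58 in PBS CD103 high cells, and 5.44, 5.43, 5.43 and 5.43 in PBS CD103 low cells. A single array, MDP CD103 low replicate 1, lay far above the other 12, and the groups overlapped in every pair compared. CD103 high against low in MDP mice was -0.38 ± 0.15 (95% interval -0.71 to -0.06), with an adjusted p of 0.388, the lowest of the 40 pairwise differences. Without MDP CD103 low replicate 1 it was -0.15.

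The second Socs2 probe set moved over a wider range, 2.94 log2 units. It was at 3.98, 4.02 and 4.99 in MDP CD103 high cells, 6.91, 4.69 and 5.16 in MDP CD103 low cells, 4.98, 5.12 and 5.62 in PBS CD103 high cells, and 5.18, 5.44, 5.37 and 4.59 in PBS CD103 low cells. The highest array was again MDP CD103 low replicate 1, and the 2 lowest were MDP CD103 high arrays. CD103 high against low in MDP mice was -1.26 ± 0.46 (adjusted p of 0.347), and MDP against PBS in CD103 high cells was -0.91 ± 0.46 (adjusted p of 0.446). Without MDP CD103 low replicate 1 the first was -0.60, with an adjusted p of 0.748. Both Socs2 probe sets had the same sign in these 2 contrasts, and neither passed the threshold. The mean of the second, 5.08, lay under the 95th percentile of the olfactory receptor genes, and that of the brighter, 5.44, little above it.

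Socs3 encodes an inhibitor that binds the shared receptor chain of the IL-6 family and blocks JAK there. It was at 5.07, 5.18 and 5.38 in MDP CD103 high cells, 4.96, 5.20 and 5.11 in MDP CD103 low cells, 4.79, 5.41 and 5.35 in PBS CD103 high cells, and 5.38, 5.56, 5.14 and 4.81 in PBS CD103 low cells. The groups overlapped in all 4 pairs compared, and the PBS groups held both the highest and the lowest array. Its spread within groups, 0.264 log2 units, was the widest among the probe sets used for the members, so that its intervals were wide, -0.38 to 0.44 for MDP against PBS in CD103 high cells. Its second probe set gave 0.34 ± 0.15 for that contrast (adjusted p of 0.347), from 5.39, 5.43 and 4.82 in MDP mice, against 4.79, 5.07 and 4.74 in PBS mice. The arrays overlapped there too.

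**Figure D3:**
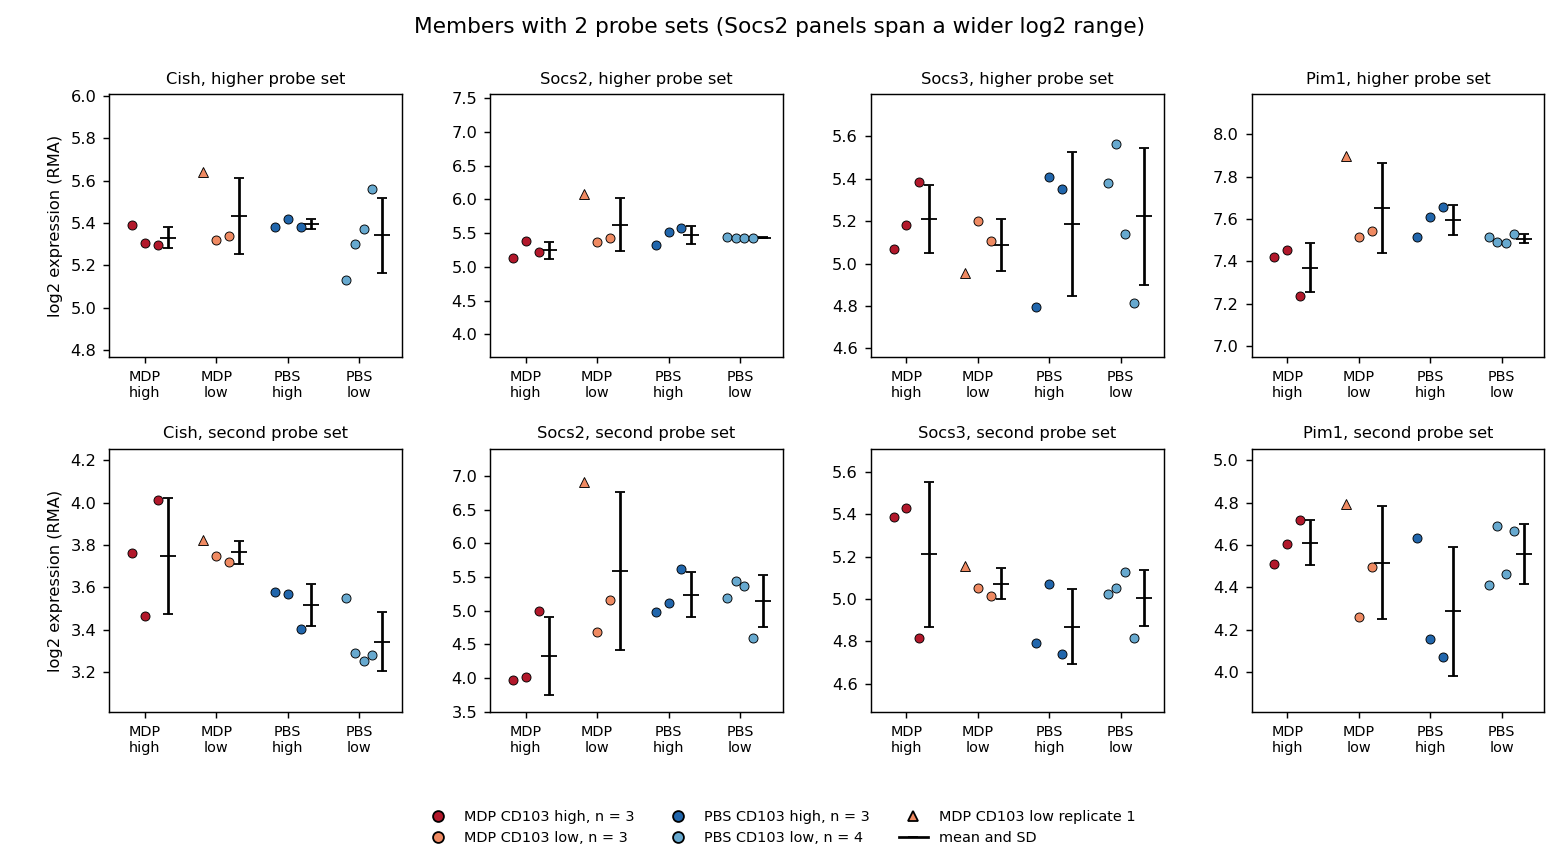
Log2 expression on each of 13 arrays for the members with 2 probe sets, the brighter probe set above and the second below, with group means and SD. For Socs2 the triangle, MDP CD103 low replicate 1, is the highest point of both probe sets, at 6.08 and 6.91; for Pim1 the MDP CD103 high mean lies under the PBS CD103 high mean on the brighter probe set and above it on the second, whose mean of 4.50 is in the range of the olfactory receptor genes.

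Pim1, a survival kinase whose gene is a STAT5 target, had the smallest p among the members. It was at 7.42, 7.45 and 7.24 in MDP CD103 high cells, against 7.52, 7.61 and 7.66 in PBS CD103 high cells. In CD103 low cells it was at 7.90, 7.52 and 7.55 in MDP mice, against 7.52, 7.49, 7.48 and 7.53 in PBS mice. The 3 MDP CD103 high arrays were the 3 lowest of all 13, and the CD103 low groups overlapped. CD103 high against low in MDP mice was -0.28 ± 0.10 (95% interval -0.50 to -0.07), with an adjusted p of 0.323. MDP against PBS in CD103 high cells was -0.22 ± 0.10 (-0.44 to -0.01), with an adjusted p of 0.348, and the interaction was -0.37 ± 0.14, with an adjusted p of 0.395. The first was -0.16 and the third -0.25 without MDP CD103 low replicate 1.

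The second Pim1 probe set averaged 4.50, under the 95th percentile of the olfactory receptor genes, so that its values may be background. It was at 4.51, 4.60 and 4.72 in MDP CD103 high cells, against 4.63, 4.16 and 4.07 in PBS CD103 high cells, and the difference was 0.32 ± 0.16 with an adjusted p of 0.411. The interaction was 0.36 ± 0.21 on this probe set (adjusted p of 0.645) and 0.50 without MDP CD103 low replicate 1, and with the mean of both probe sets MDP against PBS in CD103 high cells was 0.05.

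Pim2, a related kinase with its gene on the X chromosome, was at 7.08, 6.98 and 6.98 in MDP CD103 high cells, 7.35, 7.20 and 7.05 in MDP CD103 low cells, 7.07, 6.99 and 7.04 in PBS CD103 high cells, and 7.01, 7.54, 6.86 and 7.07 in PBS CD103 low cells. The groups overlapped in all 4 pairs compared. PBS CD103 low replicate 3 was the highest array and MDP CD103 low replicate 1 the next. CD103 high against low in MDP mice was -0.19 ± 0.14, with an adjusted p of 0.707, and -0.11 without MDP CD103 low replicate 1.

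Osm, a cytokine of the IL-6 family whose gene is induced by STAT5 in blood cells, was at 5.01, 5.00 and 4.89 in MDP CD103 high cells, 5.31, 5.04 and 5.05 in MDP CD103 low cells, 4.88, 5.18 and 5.04 in PBS CD103 high cells, and 5.03, 5.11, 5.09 and 5.16 in PBS CD103 low cells. All MDP CD103 high arrays lay under all MDP CD103 low arrays, a difference of -0.17 ± 0.09 with an adjusted p of 0.589, and -0.08 without MDP CD103 low replicate 1. Its mean of 5.06 lay inside the range of the olfactory receptor genes, so that its presence in these cells was not established by the arrays.

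Groups of arrays that did not overlap were read against the share over all genes. In CD103 high cells, MDP against PBS, this held for 2 of 10 members, Stat5a and Pim1, both lower with MDP, against 19.0% of all genes. In CD103 low cells it held for 0 of 10 members against 5.50% of all genes. For CD103 high against low in MDP mice it held for 3 of 10 members, Stat5a, Pim1 and Osm, all lower in CD103 high cells, against 14.4% of all genes. The same 3 members did so without MDP CD103 low replicate 1, against 23.0% of all genes. In PBS mice it held for 0 of 10 members against 8.53% of all genes. A count of 2 or 3 in 10 is near these shares.

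For CD103 high against low in MDP mice 1 of 10 members was above 0, with a median of -0.17, against 45.7% of all genes and a median of -0.01. For MDP against PBS in CD103 low cells 9 of 10 were above 0, with a median of 0.10, against 51.5% and 0.00. For MDP against PBS in CD103 high cells 3 of 10 were above 0, with a median of -0.06, against 46.3% and -0.01. For CD103 high against low in PBS mice 7 of 10 were above 0, with a median of 0.05, against 48.9% and 0.00. The first 2 contrasts share the MDP CD103 low arrays, and so are not independent of each other. Without MDP CD103 low replicate 1 they had 3 of 10 and 6 of 10 members above 0, with medians of -0.08 and 0.01. The interaction had 1 of 10 members above 0 both with and without that array, with medians of -0.15 and -0.08, against 47.3% and 46.4% of all genes. MDP against PBS averaged over both subsets had 5 of 10 above 0, and 2 of 10 without that array.

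MDP CD103 low replicate 1 was the highest of 13 arrays for 6 of 10 members and lay above a member's own mean for 9 of 10. Its deviation averaged over all 10 members was 0.23. The next highest such average was 0.10, on PBS CD103 low replicate 3. Socs3 was the member for which it lay low, the 11th of 13. This array was also the one with the highest mature marker mean. The part of mature cells in the members' values was not tested.

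**Figure D4:**
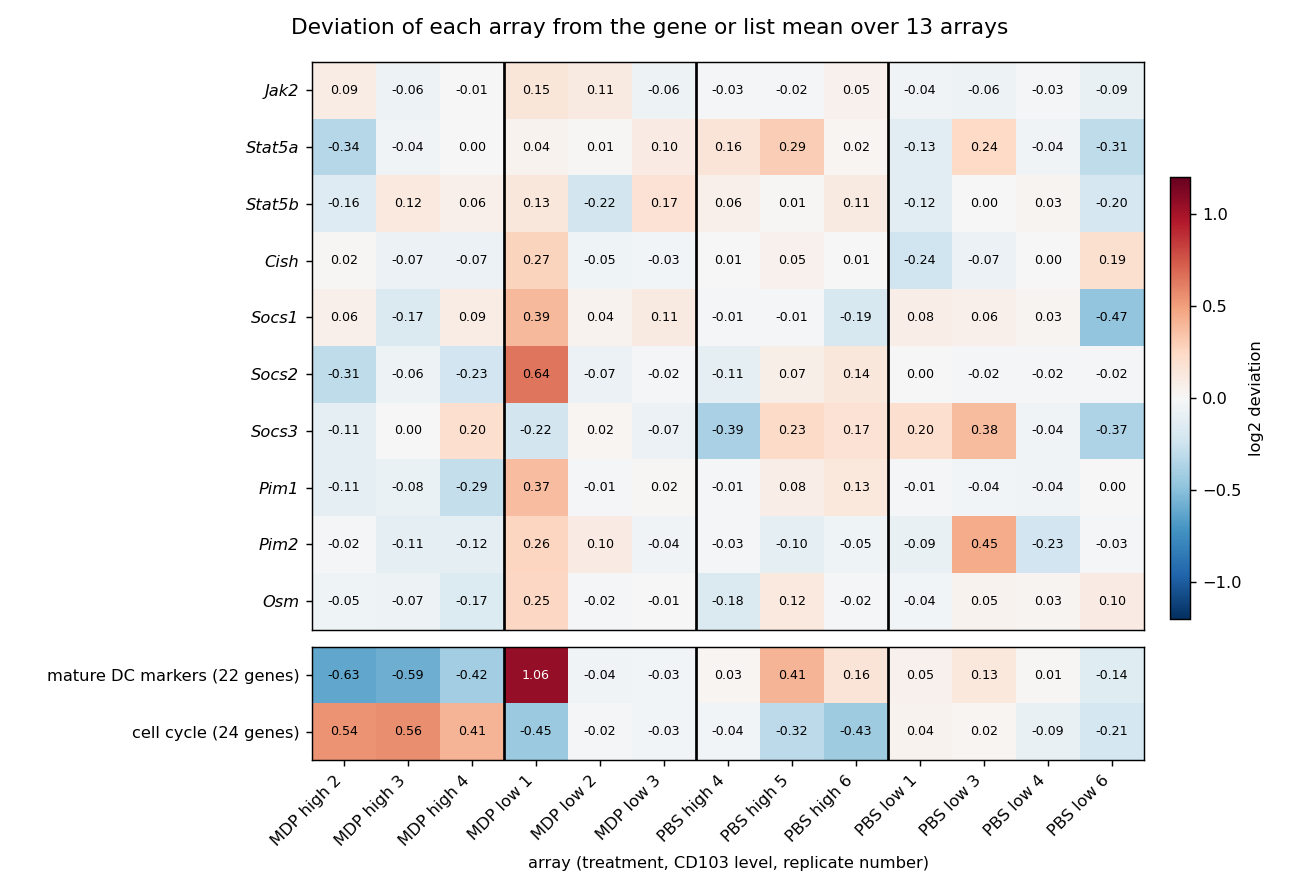
Deviation of each array from the mean over 13 arrays, in log2 units, for the 10 members and, below, for the mean of 22 mature dendritic cell markers and of 24 cell cycle genes. The MDP low 1 column is above 0 for 9 of 10 members and for the mature markers; the MDP high columns have the lowest mature marker and highest cell cycle values.

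Around the members, 60 further genes of the pathway were measured in 6 lists: receptors that activate STAT5 (19 genes), other JAKs and STATs (6), other SOCS and PIM genes (5), other inhibitors of the pathway (12), other STAT5 targets (15) and the receptors of OSM and IL-6 (4). The lists share Il2ra with each other, and Il15ra and Stat4 with the mature markers. They also share Flt3, Irf8 and Id2 with the markers of cDC1, and Csf1r with those of monocytes. Between MDP and PBS, 0 of 60 passed the threshold in either direction in CD103 high cells, against 1.82% of all genes. There 21 of 60 were above 0, against 46.3% of all genes, with a median of -0.08. In CD103 low cells 0 of 60 passed, against 0.00451% of all genes, and 41 were above 0, against 51.5%, with a median of 0.04. For CD103 high against low in MDP mice 0 of 60 passed, against 0.523%, and 16 were above 0, against 45.7%, with a median of -0.07. In PBS mice 0 of 60 were higher and 1 was lower past the threshold, against 0.0766% in either direction, and 38 were above 0, against 48.9%, with a median of 0.04. Without MDP CD103 low replicate 1 the counts above 0 were 21, 33, 18 and 38 of 60 in the same order, against 46.3%, 52.2%, 44.8% and 48.9% of all genes. The medians were then -0.08, 0.01, -0.03 and 0.04.

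Leaving out that array also changed the calls for MDP against PBS in CD103 high cells, where it is in neither group but enters the spread pooled over all groups. Without it 2 of 60 pathway genes were lower past the threshold, against 2.68% of all genes called in either direction, and both were named after their values were seen. Il4ra, the IL-4 receptor, fell by 0.72 ± 0.12, with an adjusted p of 0.00708, against 0.119 with all arrays. Il21r, the IL-21 receptor, fell by 1.13 ± 0.20, with an adjusted p of 0.0114, against 0.299 with all arrays. Over the 23 alternatives the number of pathway genes past the threshold in this contrast ran between 0 and 5. The number over all genes tested ran between 0 and 699.

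The gene past the threshold was Bcl2, which encodes an inhibitor of apoptosis and stood in the list of other STAT5 targets. It was at 6.68, 6.77 and 7.09 in PBS CD103 high cells, against 7.45, 7.37, 7.41 and 7.45 in PBS CD103 low cells. The groups did not overlap, and Bcl2 fell by 0.57 ± 0.09 in CD103 high cells, with an adjusted p of 0.0413. In MDP mice it was at 7.14, 7.30 and 7.30 in CD103 high cells, against 7.55, 7.42 and 7.46 in CD103 low cells, a difference of -0.23 ± 0.10 with an adjusted p of 0.430. Averaged over both treatments it fell by 0.40 ± 0.07, with an adjusted p of 0.0485, and the difference between the treatments had an adjusted p of 0.420. The call in PBS mice held in 2 of the 13 fits with an array left out, those without MDP CD103 low replicate 1 and without PBS CD103 high replicate 6. In the other 11 the adjusted p was 0.0643 to 0.287, and with the arrays of the 2 groups alone it was 0.198. With the mean of its probe sets the difference in PBS mice was -0.35. The call averaged over both treatments was lost in 12 of the 13 fits with an array left out, at 0.0601 to 0.138.

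Among the receptors, Crlf2, the thymic stromal lymphopoietin receptor, averaged 7.42 in MDP CD103 high cells and 7.67 in PBS CD103 high cells, a difference of -0.25 ± 0.07 with an adjusted p of 0.119. The GM-CSF receptor chain Csf2ra averaged 8.82 in MDP CD103 high cells and 9.11 in PBS CD103 high cells, with no overlap, a difference of -0.29 ± 0.10 and an adjusted p of 0.178. Csf2rb2, the IL-3 receptor chain found in mice, averaged 10.33 in MDP CD103 low cells and 10.02 in PBS CD103 low cells, with no overlap, a difference of 0.31 ± 0.10 and an adjusted p of 0.741. Without MDP CD103 low replicate 1 it was 0.18. Csf2rb, the common chain, gave -0.13 ± 0.13 for MDP against PBS in CD103 high and 0.25 ± 0.12 in CD103 low cells, with adjusted p of 0.746 and 0.814, and the second was 0.09 without that array. Il21r gave -1.57 ± 0.46 for CD103 high against low in MDP mice, with an adjusted p of 0.207, and -0.83 without it. None of these differences passed the threshold with all arrays. Of the other JAKs and STATs, Stat6, which carries the IL-4 signal, gave -0.16 ± 0.07 for MDP against PBS in CD103 high cells, with an adjusted p of 0.357.

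Among the inhibitors, Ptpn2, a phosphatase of JAKs and STATs, averaged 6.69 in MDP CD103 high cells and 7.03 in PBS CD103 high cells, a difference of -0.34 ± 0.09 with an adjusted p of 0.0752. Il6ra, the IL-6 receptor, gave -0.28 ± 0.08 for the same contrast, with an adjusted p of 0.123. Of the other targets, Myc, a driver of cell growth, gave 0.41 ± 0.12 for MDP against PBS averaged over both subsets, with an adjusted p of 0.182. Pim3, the remaining PIM kinase, gave -0.19 ± 0.09 for MDP against PBS in CD103 high cells, with an adjusted p of 0.432. The same contrast gave Nod2, the sensor of MDP, a difference of -0.01 ± 0.11 with an adjusted p of 0.986.

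The list means on the single arrays showed the same outlying library as the members. MDP CD103 low replicate 1 had the highest mean of 13 arrays for the receptors (7.06 against at most 6.77 elsewhere), the other JAKs and STATs (9.61 against at most 9.35) and the other STAT5 targets (8.38 against at most 8.18). For the receptors of OSM and IL-6, the 3 MDP CD103 high arrays, 7.10 to 7.25, lay under all other arrays, which began at 7.26. The same held for the other inhibitors of the pathway, at 8.90 to 8.96 against 8.97 and above. Osmr, the OSM receptor, went the other way, averaging 4.12 in MDP CD103 high and 3.97 in PBS CD103 high cells. These values lay under the 95th percentile of the olfactory receptor genes. Ccr7, which marks mature dendritic cells, was lower in the MDP CD103 high arrays, at 7.50 ± 0.32 against 9.30 ± 0.27 in PBS CD103 high cells (SD, n = 3 each). It passed the threshold with an adjusted p of 0.0194. Its part in the levels of the pathway genes was not tested.

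**Figure D5:**
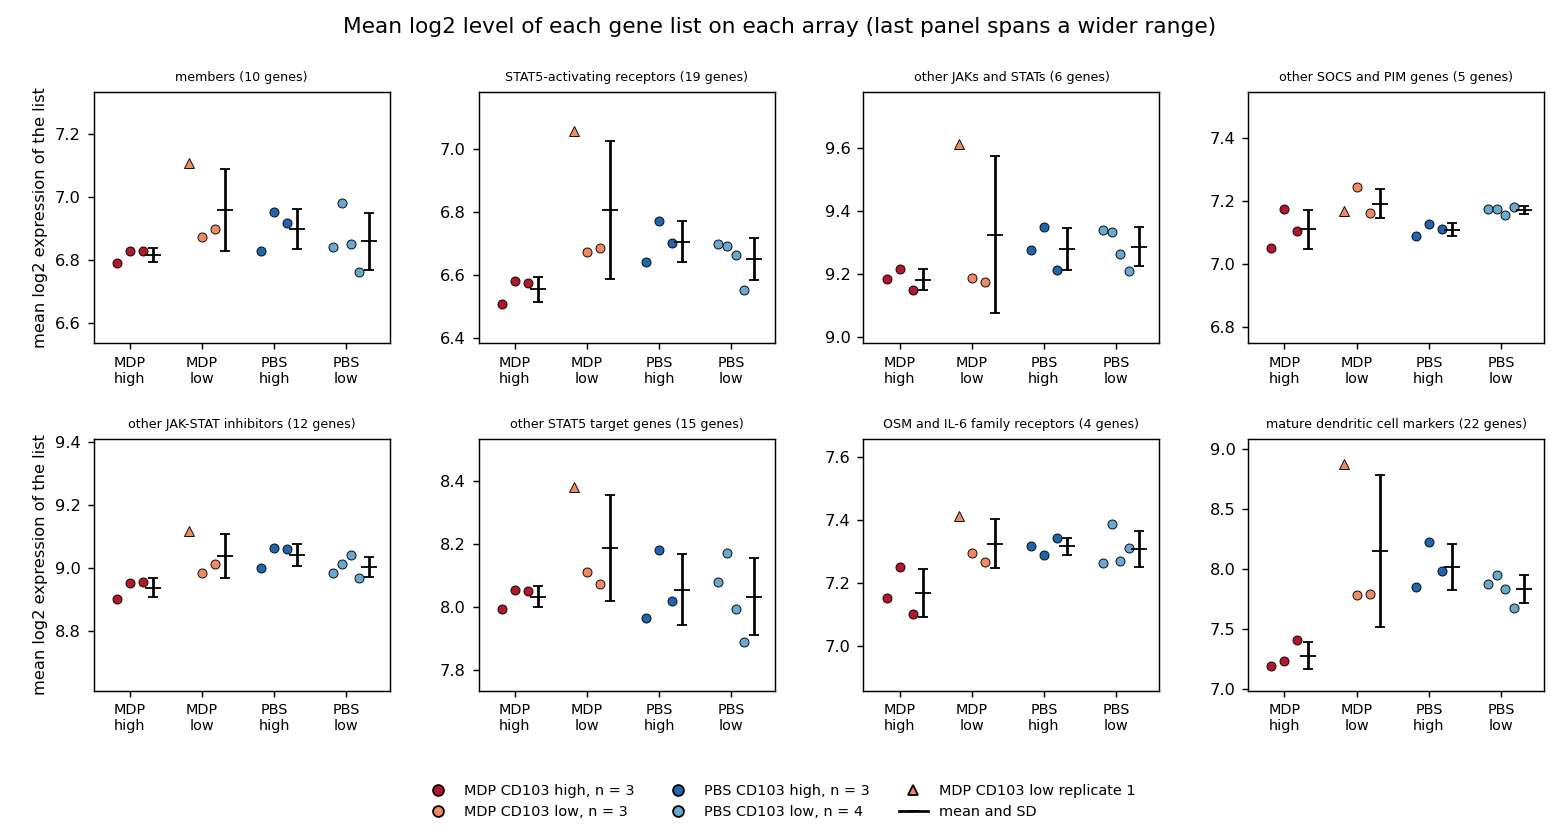
Mean log2 level of the 10 members, of 6 further pathway lists and of the mature dendritic cell markers on each of 13 arrays, with group means and SD; MDP CD103 high and low stand left of PBS CD103 high and low. The triangle, MDP CD103 low replicate 1, is the highest point in 7 of the 8 panels. The 3 MDP CD103 high points are the lowest for the mature markers, for the other JAK-STAT inhibitors and for the receptors of OSM and IL-6.

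The genes whose profile over the 13 arrays was nearest to that of Pim1 and Socs2, the 2 members with the smallest p, were found by the root mean square difference of log2 values centred on each gene's mean. For Pim1 these were Insr, the insulin receptor, at 0.0537 log2 units, and Rfx8 and Specc1l, both at 0.0578. For Socs2 they were Rcsd1 at 0.0748, the microRNA gene Mir28c at 0.0788 and Lamp1, a lysosomal membrane protein, at 0.0793. Like Pim1 and Socs2, all 6 genes were highest on MDP CD103 low replicate 1, where Insr was at 7.73 against a mean of 7.30 over all arrays, and Lamp1 at 9.63 against 9.14. The genes were picked for their likeness over these same arrays, so the shared highest array follows from the selection. Rfx8 and Mir28c averaged 3.25 and 2.58, under the 95th percentile of 5.12 over the olfactory receptor genes.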

How the data were processed

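RNA of 13 sorted samples was measured on Affymetrix whole-transcript arrays. The deposited log2 values were made by the authors with RMA in Affymetrix Expression Console, per the submitters' processing notes (version not given in the sources used here). This method quantile-normalises arrays, so that a shift common to all genes is not seen, and no detection calls were used. Of 41345 probe sets, 23521 had 1 gene symbol in the platform annotation, 1814 had several and 16010 had none. Genes were reduced to the probe set with the highest mean, and 22180 were tested. Of these symbols 21994 matched RefSeq. The median array value ran between 5.00 and 5.13, and the number of arrays limits the precision.

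Differences were fitted with limma 3.58.1 in R 4.3.3 (1 mean per group, 9 residual degrees of freedom) and adjusted by Benjamini-Hochberg over all genes. Intervals are the difference ± 2.16 SE. All 10 members are named, and of other pathway genes those past the threshold, at most the 1 with the smallest p of a list in a contrast where none passed, and the receptor chains for GM-CSF. The members and lists were chosen with earlier results of these data known. Replicate numbers were checked for pairing over 11086 genes. Within a treatment, all 4 same-numbered pairs had deviations that correlated at 0.12 to 0.29 and lay on the same side of Xist, so that these arrays were also fitted as a random block (consensus correlation 0.183). Across treatments 5 pairs gave -0.13 to 0.40 and were not taken as paired. Alternatives were array omissions, probe set means, weights, filters, scalings, blocks and a Xist covariate. Some listed pathway genes were not analysed here.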

Additional observations from a re-analysis of the deposited data

Results flagged for a closer look

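Single arrays were looked for in the group with 4 arrays, CD103 low cells of PBS mice, for each of the 10 members. An array far from the rest of its group is marked by chance in about 1 of 20 such groups, and 2 of 10 were found.

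Socs1 was at 6.91 in PBS CD103 low replicate 6, against 7.42 to 7.46 on the other 3 arrays of the group, a gap of 0.917 of the whole range. Socs2 was at 5.44 in PBS CD103 low replicate 1, where the other 3 arrays shared the value 5.43. The whole range there was under 0.02 log2 units, and the identical values of the 3 arrays set the gap.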

How the results depend on the processing

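The count of members past the threshold stayed at 0 in all 7 contrasts under all 23 alternatives, and the smallest adjusted p over them was 0.171, for Pim1 with MDP against PBS in CD103 high cells without MDP CD103 low replicate 1. Of the 70 member differences, 34 changed sign in at least 1 alternative. Pim1 turned round with the probe set: MDP against PBS in CD103 high cells was 0.0501 with the mean of its probe sets, and, in a comparison chosen after seeing the data, the second probe set on its own gave 0.32 for that contrast, 0.0947 for CD103 high against low in MDP mice and 0.36 for the interaction. The second probe set averaged 4.50, under the 95th percentile of 5.12 of the olfactory receptor genes, and also without MDP CD103 low replicate 1 it gave 0.32, 0.23 and 0.50. Socs2 kept its sign for CD103 high against low in MDP mice, at -0.82 with the mean of its probe sets.

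With the replicate number as a fixed replicate block over all 6 numbers, 0 of 22180 genes passed in any contrast, members included. Pim1 then gave -0.18 for MDP against PBS in CD103 high cells, -0.20 for CD103 high against low in MDP mice and -0.33 for the interaction, and Stat5a gave -0.32 for the first of these. With the random replicate block within treatment, Pim1 gave -0.21, -0.26 and -0.35 and no member passed. The Bcl2 call in PBS mice was kept with the random block (adjusted p of 0.0275) and lost with the fixed block (0.448), and it held in 9 of 23 alternatives. Averaged over treatments it held in 7 of 22, and in 1 of 13 with an array left out.

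Over all genes, leaving out 1 array moved the count past the threshold from 403 to between 82 and 594 for MDP against PBS in CD103 high cells, from 116 to between 0 and 140 for CD103 high against low in MDP mice, and from 16 to between 0 and 107 for the interaction. Among the 10 other alternatives the counts for these ran to 0 at the lowest and to 699, 228 and 134 at the highest. With 3 or 4 arrays a group, the median SE over all genes was 0.0754 to 0.151 log2 units, depending on the contrast, which limits the differences that can be told from 0. Cish, Socs2, Socs3 and Osm, with means of 5.37, 5.44, 5.18 and 5.06, lay near the top of the range of the olfactory receptor genes, whose median was 2.97. For MDP against PBS in CD103 high cells 5 of the 60 pathway genes passed when genes at or under that 95th percentile were left out, and 0 with all genes. Bcl2 was higher with MDP, and Crlf2, Il6ra, Pias1 and Ptpn2 were lower. Some of the 60 were themselves left out by this filter, so that fewer than 60 were tested with it. The share of all genes that passed with this filter is not given here, so the 5 cannot be set against it.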
